A study of Raphidocelis subcapitata with 270 samples.

Results

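Gene expression was measured in the unicellular freshwater green alga Raphidocelis subcapitata after 24 h of exposure to metribuzin-DA at 7 labelled levels, D1 to D7. The data comprised every library labelled with this chemical, which gave 21 treated libraries (3 per level), together with the 3 libraries of algae that received only the solvent dimethyl sulfoxide (DMSO). These 24 libraries are part of 270 in the whole series, which covers 12 chemicals. The same 3 DMSO libraries also served as controls for 2-tert-butyl-4-methoxyphenol. All cultures were in exponential growth and were exposed in 96-well plates, and the replicates are lettered A, B and C. Nothing in the labels states that replicates were grown as separate cultures, so p-values cover only how far these libraries differed, and that may be technical variation. The labels also give no concentration for any level. The series text describes a half-log dilution series, typically between 66.7 and 0.021 µM, without saying which end is D1, and the levels are therefore treated as named groups without an order. The question the comparison addresses is which transcripts differ from solvent at each level.

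Metribuzin-DA is a transformation product of the triazinone herbicide metribuzin that has lost its amino group. Metribuzin itself blocks photosynthetic electron transport by occupying the plastoquinone-binding site of photosystem II, the complex in the chloroplast membrane that uses light to oxidise water. Green algae are used in toxicity testing and carry the target of such herbicides. This is background and was not measured here: the genes are known only by their Rsub identifiers, so no transcript below can be assigned to photosynthesis or to any other function, and no sequence is shown.

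RNA was read as 3′ tags, so that each transcript contributes reads from its end, and the values analysed are unnormalized read counts. The 24 libraries held between 780565 and 1479441 counts over 13429 genes, of which 9210 had enough counts to be tested. The typical variation between replicates, the common biological coefficient of variation, was 14.4%. On the first principal component, which held 11.3% of the variance, D1 replicates A and B had the lowest scores (-18.51 and -18.9), while D1 replicate C (-6.66) lay among the D2 to D4 libraries. The DMSO libraries scored between 2.81 and 8.51. Library D1 C thus stood apart from the other 2 libraries of its level, and counts that rest on it are given with and without it.

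D1 had the most called genes with all 24 libraries in the fit. At D1, 82 of the 9210 genes tested, or 0.89%, passed an adjusted p of 0.05 (edgeR quasi-likelihood test with Benjamini-Hochberg adjustment), 33 higher and 49 lower than in DMSO. The changes were modest in size: of the higher genes 10 changed by less than 1.5-fold, 16 by 1.5-fold to 2-fold and 7 by more than 2-fold, and of the lower genes 12, 26 and 11 did. For 77 of the 82 genes the 3 D1 libraries all lay on one side of the 3 DMSO libraries, which was the case for 16.1% of all genes tested. The 82 genes were chosen by a comparison of these same libraries, so this separation is a description. The called genes were also more abundant than most, with a median of 146 CPM (counts scaled to a common library total) in DMSO for the higher genes and 221 for the lower genes against 40.0 for all genes tested.

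The number of genes called at D1, and their split by direction, depended on single libraries. Leaving out D1 replicate B left 10 genes (4 higher and 6 lower), fewer than the 22 called at D2 with all libraries. Leaving out D1 replicate A left 42 (24 higher and 18 lower), and leaving out D1 replicate C raised the count to 128 (68 higher and 60 lower). When DMSO replicate A was dropped 24 genes were called (14 higher and 10 lower), and when DMSO replicate B was dropped 17 were (9 higher and 8 lower). In fits of only the 6 libraries compared, D1 had fewer calls than D2, with 58 genes against 83. DESeq2 called 140 genes, and a joint edgeR fit with the 2-tert-butyl-4-methoxyphenol libraries called 20, in which Rsub_00048 kept its call and the other 3 genes described next had adjusted p between 0.0503 and 0.302.

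Among called genes with a mean of at least 10 counts and groups that did not overlap, the largest rise at D1 was that of Rsub_00048. It was at 22.9, 29.6 and 40.9 CPM in the 3 DMSO libraries and at 125, 126 and 83.2 CPM in D1 replicates A, B and C. All 3 D1 libraries lay above every DMSO library, and the log2 fold change was 1.81 ± 0.273 (SE, n = 3 per group, edgeR adjusted p = 0.000204). The second was Rsub_08453, with 284, 301 and 292 CPM in DMSO and 699, 933 and 361 CPM at D1. D1 replicate C was much closer to DMSO than the other 2 libraries, and the log2 fold change of 1.18 ± 0.232 (edgeR adjusted p = 0.00584) became 0.85 without D1 replicate B, with an adjusted p of 0.143.

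Under the same conditions the largest falls at D1 were those of Rsub_05567 and Rsub_12462. Rsub_12462 went from 49.2, 59.2 and 44.8 CPM in DMSO to 17.6, 12.5 and 20 CPM at D1, a log2 fold change of -1.61 ± 0.281 (edgeR adjusted p = 0.00274). Its 3 D1 values lay below those of all 21 other libraries of the set. Rsub_05567 had 40.4, 22.2 and 36.3 CPM in DMSO and 13.7, 14.5 and 3.16 CPM at D1, where its log2 fold change was -1.62 ± 0.401 (edgeR adjusted p = 0.0348). Its groups did not overlap, but its call was lost when DMSO replicate A or C or any 1 of the D1 libraries was left out, with adjusted p between 0.0563 and 0.142. Only 31 counts of this gene were seen in the 3 D1 libraries together.

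**Figure D1:**
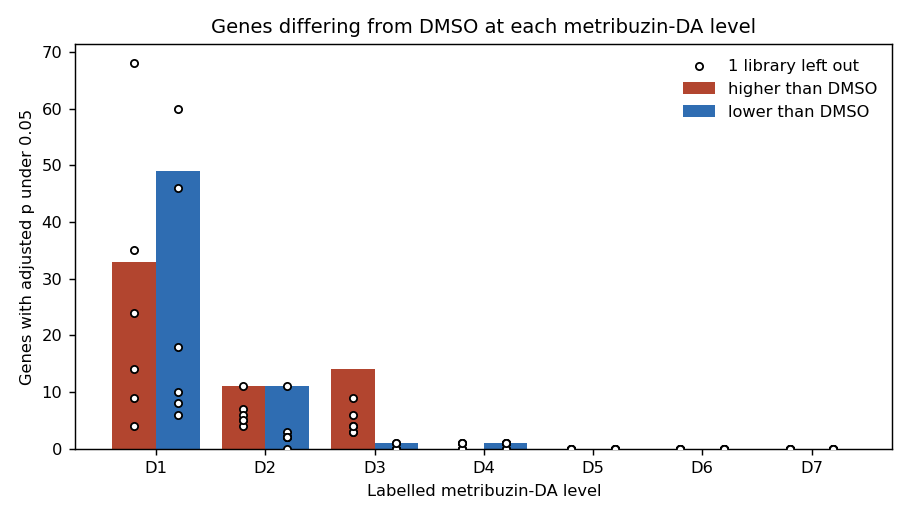
Number of genes with an edgeR adjusted p under 0.05 against DMSO at each labelled level, split into higher (red) and lower (blue) genes, with white points for the same count when 1 treated or DMSO library is left out. The bars fall from 33 and 49 genes at D1 to 11 and 11 at D2, 14 and 1 at D3 and 0 and 1 at D4, with none at D5 to D7.

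Fewer genes were called at the other levels. At D2 the count was 22 genes (0.239% of those tested), 11 higher and 11 lower, and at D3 it was 15 genes (0.163%), 14 higher and 1 lower. At D4 a single gene was called (0.0109%), which was lower. At D5, D6 and D7 edgeR called 0 genes (0% at each), although 515, 427 and 314 genes had a p under 0.05 before adjustment. The lowest adjusted p at these levels was 0.219, 0.132 and 0.102. DESeq2 called 62, 18 and 17 genes at D2, D3 and D4, and 0, 0 and 2 genes at D5, D6 and D7.

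The small edgeR counts also moved with single libraries. At D2 dropping DMSO replicate B left 5 genes, dropping DMSO replicate A left 6, and dropping any 1 of the D2 libraries left 8 or 9. At D3 it fell to 3 without DMSO replicate B or D3 replicate C, 4 without D3 replicate A, 5 without DMSO replicate C, 7 without D3 replicate B and 9 without DMSO replicate A. At D4 the edgeR count was 0 without DMSO replicate B or D4 replicate B (627 and 586 genes under 0.05 before adjustment), and 2 without DMSO replicate C, D4 replicate A or D4 replicate C.

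Under the same conditions Rsub_00048 and Rsub_08453 were also the largest rises at D2 and D3, and all of these comparisons use the same DMSO libraries, so their values are given side by side. Rsub_00048 was at 112, 102 and 98.3 CPM at D2 and at 95.0, 63.7 and 119 CPM at D3. Its log2 fold change was 1.71 ± 0.273 at D2 (edgeR adjusted p = 0.000671) and 1.55 ± 0.277 at D3 (edgeR adjusted p = 0.00448). The D3 call was lost without D3 replicate C (adjusted p = 0.158) or DMSO replicate B (0.0552). At D4 and D5 all libraries of this gene still lay above DMSO, at 67.6 to 105 CPM and 46.3 to 99.9 CPM, but the adjusted p was 0.0562 and 0.480. At D6 and D7 its libraries overlapped with DMSO, with 31.8 to 52.2 CPM and 17.4 to 48.3 CPM.

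Rsub_08453 followed another course over the levels. It had 917, 471 and 1070 CPM at D2 and 1020, 536 and 1120 CPM at D3, with log2 fold changes of 1.49 ± 0.231 (edgeR adjusted p = 0.000671) and 1.61 ± 0.232 (edgeR adjusted p = 0.000128). At both levels replicate B lay nearer to DMSO than to the other 2 libraries. In the joint fit with the 2-tert-butyl-4-methoxyphenol libraries this gene was not called at D1, D2 or D3 (adjusted p from 0.287 to 0.499). At D4 to D7 the gene stayed between 399 and 716 CPM, above all DMSO libraries, without a call at any of these 4 levels (adjusted p from 0.0562 to 0.993).

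Under these conditions the genes that fell most at D2 to D4 changed by about 2-fold or less. Rsub_01802 had 178, 229 and 204 CPM in DMSO, 116, 113 and 113 CPM at D2 and 107, 106 and 92.9 CPM at D4. The log2 fold change was -0.84 ± 0.174 at D2 (edgeR adjusted p = 0.0172) and -1.003 ± 0.177 at D4 (edgeR adjusted p = 0.00989), where it was the only gene called. The D2 call was lost without DMSO replicate B or any 1 of the D2 libraries, with adjusted p between 0.0689 and 0.196, and the D4 call without DMSO replicate B or D4 replicate B or C (0.0712 to 0.242). Its libraries at D1 (113 to 129 CPM) and D3 (111 to 164 CPM) also lay below all DMSO libraries, while those at D5 to D7 overlapped with them.

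Rsub_09275 was at 158, 152 and 133 CPM in DMSO and at 107, 77.7 and 73.2 CPM at D2, a log2 fold change of -0.78 ± 0.181 (edgeR adjusted p = 0.0461). The groups did not overlap, yet the call was lost when DMSO replicate A or B or D2 replicate B or C was left out (adjusted p from 0.176 to 0.275). Rsub_10269, the only gene called lower at D3, was at 332, 279 and 281 CPM in DMSO and at 166, 203 and 193 CPM at D3, with a log2 fold change of -0.66 ± 0.149 (edgeR adjusted p = 0.0437). Without any 1 of these 6 libraries it was no longer called, with adjusted p between 0.0770 and 0.350.

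**Figure D2:**
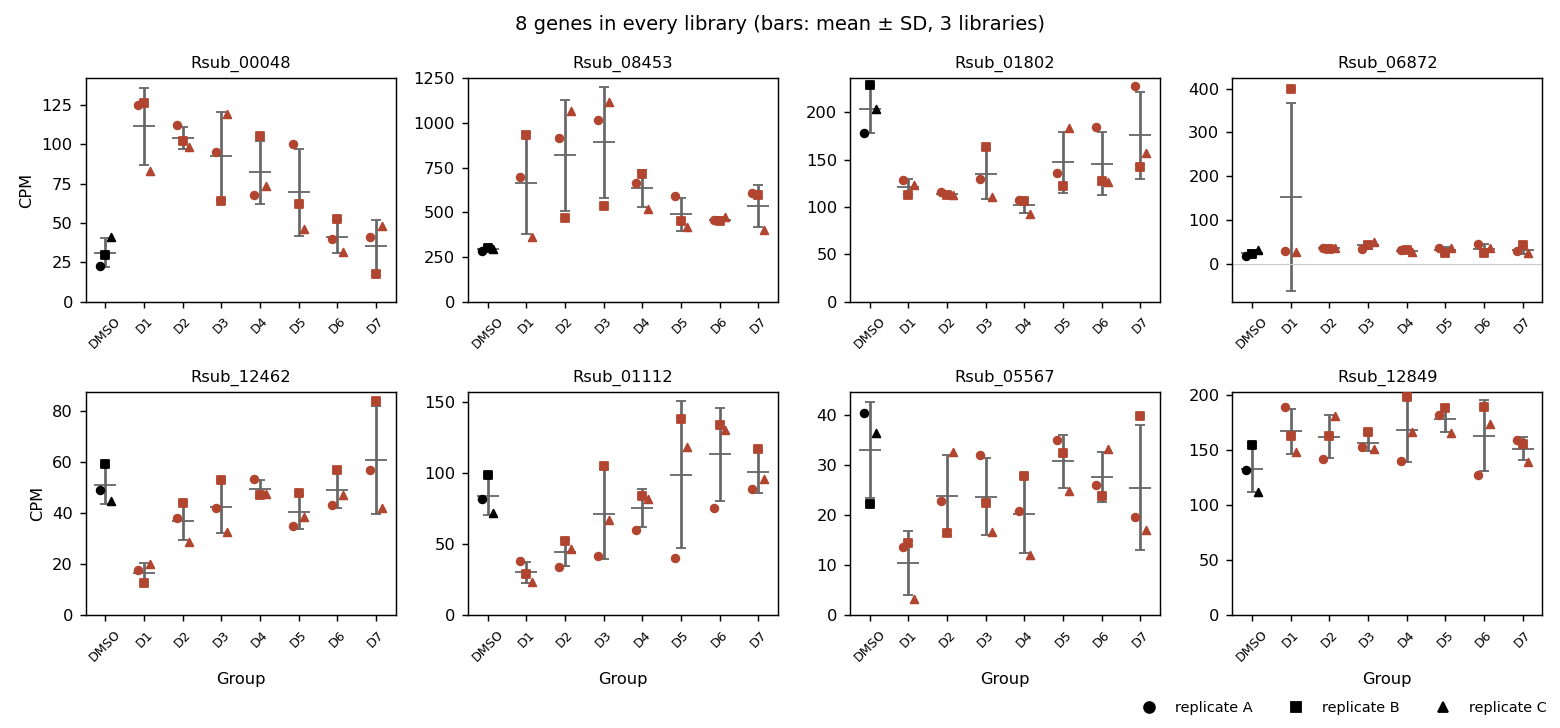
TMM-scaled CPM of 8 genes in each of the 24 libraries, by group, with the mean and SD of the 3 libraries of a group in grey and one symbol per replicate letter (DMSO black, treated red). Rsub_08453 lies above DMSO in all 21 treated libraries, Rsub_12462 is lowest at D1, and the D1 mean of Rsub_06872 comes from replicate B at 400 CPM.

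The 82 genes called at D1 were followed over the other levels as 2 lists, chosen by their D1 difference from DMSO, so their D1 medians are a description. The 33 higher genes had a median log2 fold change against DMSO of 0.72 at D1, 0.41 at D2, 0.44 at D3, 0.39 at D4, 0.30 at D5, 0.19 at D6 and 0.16 at D7. The 49 lower genes had medians of -0.71, -0.46, -0.30, -0.28, -0.14, -0.06 and -0.04 at D1 to D7. The median over all genes tested was within 0.01 of 0 at every level. Among D2 to D7 both lists were nearest to DMSO at D7, while their distance from DMSO at D1 follows from the choice of the lists.

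Because D1 and DMSO both entered the choice of the lists, the levels D2 to D6 were also set against D7, a contrast that uses neither. Relative to D7 the higher genes had medians of 0.34 at D2, 0.23 at D3, 0.13 at D4, 0.07 at D5 and -0.03 at D6. The lower genes had medians of -0.38, -0.23, -0.22, -0.04 and 0.02 at the same levels, and the medians over all genes tested were 0.01. At D2 to D4 the lists thus differed from D7 in the direction of their D1 change, and at D6 they were within 0.05 of D7.

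**Figure D3:**
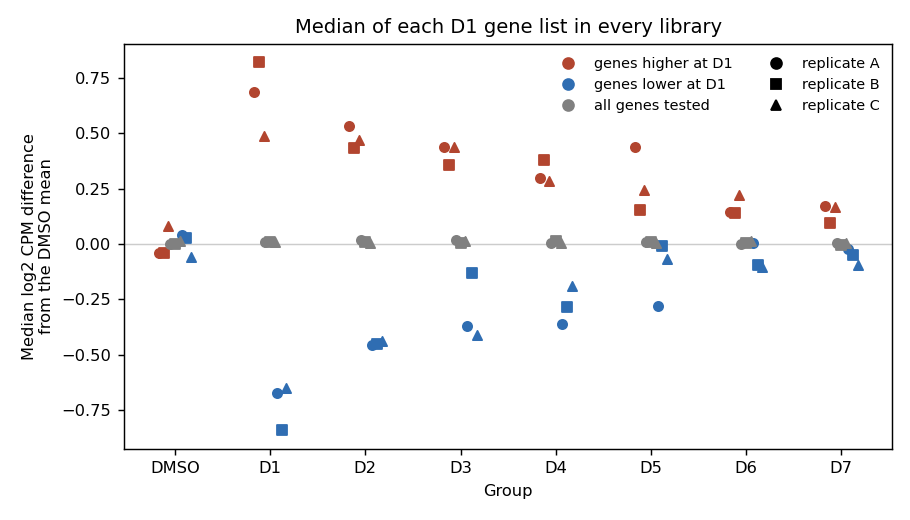
Median log2 CPM difference from the mean of the 3 DMSO libraries, in each library, for the genes called higher at D1 (red), those called lower at D1 (blue) and all genes tested (grey). The red medians run from 0.49 to 0.82 in the D1 libraries and from 0.10 to 0.17 in the D7 libraries, the blue medians from -0.84 to -0.65 and from -0.10 to -0.02, and the grey medians stay near 0.

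Library by library the medians also came nearer to DMSO along the labels from D2 to D7, with some scatter. The median of the higher list was 0.69, 0.82 and 0.49 in D1 replicates A, B and C, so that D1 replicate C was close to the D2 libraries (0.43 to 0.53). The lower list had medians of -0.67, -0.84 and -0.65 in the D1 libraries and -0.46, -0.45 and -0.44 in the D2 libraries. At D3 and D5 the replicates disagreed more: the lower list stood at -0.13 in D3 replicate B against -0.37 and -0.41 in A and C, and at -0.28 in D5 replicate A against -0.01 and -0.07 in B and C.

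**Figure D4:**
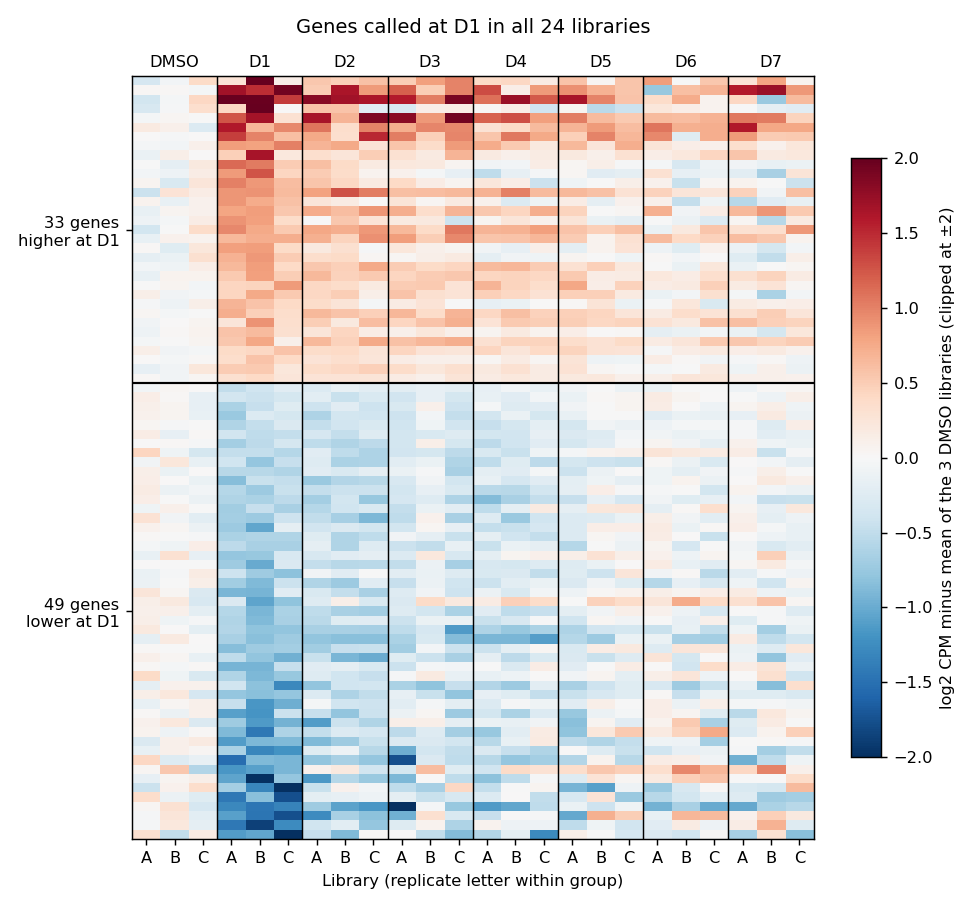
Log2 CPM minus the mean of the 3 DMSO libraries for the 33 genes called higher and the 49 genes called lower at D1 (rows, ordered by their D1 log2 fold change) in all 24 libraries (columns, by group and replicate letter), clipped at 2 in either direction. Colour is strongest in the D1 columns and pales towards D7, apart from a few genes at the top that stay red at most levels.

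Tests over several levels at once gave counts of similar size. Over the 7 levels and DMSO together, 80 genes (0.869% of those tested) differed, and in a test of the 7 levels among themselves, which leaves DMSO out of the contrast, 68 genes (0.738%) differed. Among these 68 genes the level farthest from the median of the levels was D1 in 47 genes (69.1%), against 22.2% of all genes tested, followed by D7 in 9 and D2 in 6. Of the 80 genes, D1 was the farthest group in 44 and DMSO in 14. Over all genes tested, D1 was the farthest group in 20.8% and DMSO in 12.7%, against 55% and 17.5% of the 80 genes. Without D1 replicate B the counts were 41 for DMSO and levels together and 24 among the levels, and without D1 replicate C they were 107 and 77. The count among the levels was also 40 without D1 replicate A and 36 without D6 replicate B.

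By the rule used for naming, the largest falls in both tests were those of Rsub_12462 and Rsub_01112. Rsub_01112 was at 82.0, 98.6 and 71.8 CPM in DMSO, 38.1, 29.1 and 23.2 CPM at D1, and 33.6, 52.5 and 46.6 CPM at D2. Its libraries at D5 to D7 lay between 40.2 and 138 CPM, so only D1 and D2 were below DMSO throughout. It differed among the 7 levels (edgeR adjusted p = 0.000713) and over all groups (0.00115), and Rsub_12462 did so with adjusted p of 0.00337 and 0.00367. In the joint fit with the 2-tert-butyl-4-methoxyphenol libraries neither gene was called in these tests (adjusted p from 0.194 to 0.345). Without D1 replicate B the adjusted p of Rsub_12462 was 0.0625 among the levels and 0.0546 over all groups.

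By the same rule, the largest rises among the levels came from a single library. Rsub_06872 was at 400 CPM in D1 replicate B and at 29.3 and 26.3 CPM in D1 replicates A and C, and lay between 18.6 and 49.2 CPM in the 21 libraries of the other groups. Its adjusted p among the levels was 0.00474, and without D1 replicate B it was 0.911, with its largest log2 fold change falling from 2.60 to 0.78. Rsub_05089 was at 252 CPM in D1 replicate B, at 51.8 and 39.0 CPM in the other D1 libraries and between 25.9 and 58.1 CPM elsewhere. Its adjusted p among the levels went from 0.0120 to 0.835 without that library, and Rsub_08131 was likewise highest in D1 replicate B (42.6 CPM, against 2.04 to 18.8 CPM in the other libraries).

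Rsub_00048 was the second rise named over all groups (edgeR adjusted p = 1.85e-05), and it kept its call there in all 30 alternative settings.

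The average of the 7 levels differed from DMSO in 12 genes (0.13%), 11 of them higher and 1 lower. The largest were Rsub_08453 (log2 difference 1.09 ± 0.189, edgeR adjusted p = 0.00651), Rsub_00048 (1.16 ± 0.228, adjusted p = 0.0204) and, in the lower direction, Rsub_01802 (-0.62 ± 0.124, adjusted p = 0.0204). Rsub_08453 lay above all DMSO libraries in 21 of 21 treated libraries, Rsub_00048 in 18 of 21, and Rsub_01802 lay below them in 18 of 21. At least 18 of 21 was the condition for naming a gene here, and 3.05% of all genes tested met it. The other 9 genes changed by 0.29 to 0.88 on the log2 scale. Rsub_03806 was at 531 ± 39.8 CPM in DMSO (SD, n = 3) and between 596 and 767 CPM in the treated libraries, and Rsub_10402 was at 3480 ± 185 CPM in DMSO and between 3780 and 4710 CPM in the treated libraries. These 2 genes were chosen after their values were seen, as examples of small differences that all 21 treated libraries shared.

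All 12 calls depended on the 3 DMSO libraries. EdgeR called 0 genes when DMSO replicate A was dropped and 0 when DMSO replicate B was dropped, where 599 and 549 genes had a p under 0.05 before adjustment. It called 5 without DMSO replicate C and 23 without D7 replicate C. DESeq2 on all libraries called 27. The levels of these genes were therefore looked up in the DMSO libraries of the other 5 control sets of the series. For the 11 higher genes, the DMSO level of the metribuzin-DA set was the lowest of the 6 sets in 5 genes, the second lowest in 2 and the third lowest in 4, and for Rsub_01802 it was the highest of the 6. Over all genes this set took each of the 6 ranks in 15.3% to 17.6% of genes. The 12 genes were chosen by their difference from these same DMSO libraries, which itself favours such ranks, so the ranks are a description.

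Rsub_00048 shows the size of such differences: its DMSO mean was 30.8 ± 9.05 CPM in this set and between 63.6 and 109 CPM in the other 5 sets when all DMSO libraries were scaled together. The metribuzin-DA libraries at D1 to D3, at 63.7 to 126 CPM, were thus within or near the range of those other DMSO means. Rsub_01802 had a DMSO mean of 202 ± 24.9 CPM here and of 84.2 to 177 CPM in the other sets. Without DMSO in the contrast, Rsub_00048 was higher at D1 than at D7 by 1.60 ± 0.268 on the log2 scale (edgeR adjusted p = 0.000467). It also differed among the 7 levels (edgeR adjusted p = 0.000625). Rsub_01802 passed in neither of these tests (edgeR adjusted p = 0.129 and 0.126). In 2-tert-butyl-4-methoxyphenol, with the same DMSO libraries, the log2 fold changes of Rsub_00048 over the 7 levels ran from 0.72 to 1.26. Those of Rsub_01802 ran from -0.27 to 0.06. For the mean of the 7 levels, the part of this set's DMSO libraries cannot be told apart from an effect of the chemical at all levels.

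D1 and D7 were compared directly, without DMSO in the contrast. This found 135 genes (1.47% of those tested), 65 higher at D1 and 70 lower, of which 38 differed by more than 2-fold. The 65 higher genes had a median log2 difference of 0.76 between D1 and D7, and median log2 fold changes against DMSO of 0.51 at D1 and -0.18 at D7. For the 70 lower genes the medians were -0.80, -0.69 and 0.12. These genes were chosen for their difference between D1 and D7, which itself moves the D1 and D7 medians apart, so the medians are a description. The count rose to 178 without D1 replicate C and fell to 18 without D1 replicate B, 59 without D1 replicate A, 61 without D7 replicate B and 87 without D7 replicate A. It was 21 in a fit of only these 6 libraries.

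Among called genes with a mean of at least 10 counts whose D1 and D7 libraries did not overlap, the largest differences were in Rsub_10661, Rsub_08131, Rsub_01913 and Rsub_12462. Rsub_10661 was at 19.5, 38.4 and 34.7 CPM at D1 and at 4.89, 12.3 and 9.51 CPM at D7, with a log2 difference of 1.78 ± 0.395 (edgeR adjusted p = 0.0115). Its DMSO libraries, at 9.83, 28.8 and 24.7 CPM, overlapped with both levels. The call was lost without D1 replicate B (adjusted p = 0.0961) or D7 replicate A (0.0711), and in the fit of only the 6 libraries (0.0746).

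Rsub_08131 was at 14.7, 42.6 and 10.5 CPM at D1 and 8.80, 2.04 and 8.16 CPM at D7. Its log2 difference of 1.77 ± 0.484 (edgeR adjusted p = 0.0477) fell to 0.93 without D1 replicate B (0.527). Its call was also lost without any 1 of the DMSO or D7 libraries (0.0503 to 0.218). The same held in the fit of only the 6 libraries (0.176) and in the joint fit with the 2-tert-butyl-4-methoxyphenol libraries (0.197). Rsub_01913 was at 0.977, 5.19 and 4.21 CPM at D1 and 7.82, 29.6 and 27.9 CPM at D7, a log2 difference of -2.64 ± 0.699 (edgeR adjusted p = 0.0413). It was not called without any 1 of the D1 libraries or D7 replicate B or C (0.0644 to 0.173), and replicate A was its lowest library in all 7 levels and in DMSO. With the replicate letter as a block its edgeR adjusted p was 0.000706, and in the joint fit with the 2-tert-butyl-4-methoxyphenol libraries it was 0.0621. Only 10 counts of this gene were seen in the 3 D1 libraries together. Rsub_12462 had the second largest fall among genes whose groups did not overlap, with 56.7, 83.8 and 42.1 CPM at D7 and a log2 difference of -1.84 ± 0.277 (edgeR adjusted p = 7.7e-05), and it was called in all 16 alternative settings.

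The genes called at D1 were then looked up at D1 of the other chemicals, each against its own DMSO libraries in a fit of its own 24 libraries. Of these, 10 chemicals have DMSO libraries that the metribuzin-DA comparison does not use, although they share DMSO libraries among themselves in pairs. Of the 82 genes, 71 (86.6%) were called in the same direction at D1 in at least 1 of the 10, and 36 in at least 3, whereas 11 were called in none. Over all 9210 genes tested, 19.4% were called in at least 1 of the 10 in the direction of their own metribuzin-DA fold change and 3.71% in at least 3. The 82 genes are more abundant than the average gene, as given above, and no match on abundance was made. The share of 86.6% lay between 79.7% and 95.8% when the genes were called without 1 D1 or DMSO library.

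The overlap was found with chemicals of many and of few calls. Gabapentin, with 14% of its genes called at D1, called 61 of the 81 metribuzin-DA genes tested there, and 4-chlorophenyl methyl sulfone, with 9.45% called, called 51 of 82. Fipronil carboxamide (5.63% called) called 21 of the 82, 3,4-Dichlorophenyl isocyanate (5.48%) called 27, and cis-nonachlordane (2.57%) called 21. Among chemicals with few calls, 1(2H)-Phthalazinone (1.83%) called 17, Metolachlor OA (1.6%) called 15, Hydrochlorothiazide (1.47%) called 22, Cetirizine Hydrochloride (0.666%) called 11 and Fexofenadine (0.418%) called 10. In each of the 10 the share of the 82 genes called was above the share of all genes called. With 3 exceptions over all 10 chemicals, the calls were in the metribuzin-DA direction.

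In all 10 chemicals the higher list had a median log2 fold change above 0 and the lower list one below 0, from 0.04 in Fipronil carboxamide to 0.96 in gabapentin and from -0.77 in gabapentin to -0.16 in Fexofenadine. For 2-tert-butyl-4-methoxyphenol, which shares the DMSO libraries and had 18.3% of its genes called at D1, 50 of the 82 genes were called and the medians were 0.79 and -0.69.

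Single genes showed how general these responses were. Rsub_04768 and Rsub_09770, named after their values were seen, were called higher at D1 in all 10 chemicals, but with a filter at a mean of 10 counts only Rsub_09770 was. Rsub_04768 was at 641, 605 and 418 CPM in the metribuzin-DA D1 libraries against 291, 257 and 334 CPM in DMSO, a log2 fold change of 0.91 ± 0.133 (edgeR adjusted p = 0.000179), and its log2 fold changes in the 10 chemicals ran from 0.48 to 1.13. Its D2 libraries, at 331 to 447 CPM, overlapped with D1 and with DMSO. Rsub_01112 was called lower in 9 of the 10 chemicals, with log2 fold changes from -3.09 to -1.06, and Rsub_12462 in 5, with -2.77 to -0.51.

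Rsub_05567 was called in none of the 10, where its log2 fold change ran from -0.75 to 0.16 against -1.62 in metribuzin-DA. Rsub_00048 was called higher in gabapentin (1.16 ± 0.221) and 4-chlorophenyl methyl sulfone (0.99 ± 0.193) and in neither direction in the other 8. In 2-tert-butyl-4-methoxyphenol, with the same DMSO libraries, Rsub_00048 was also called higher (1.26 ± 0.225, edgeR adjusted p = 0.000117). Its level at D1 in the 12 chemicals lay between 74.6 and 140 CPM, so that the metribuzin-DA mean of 111 ± 24.4 CPM was inside the range of the others, while its DMSO mean was below those of the other sets.

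**Figure D5:**
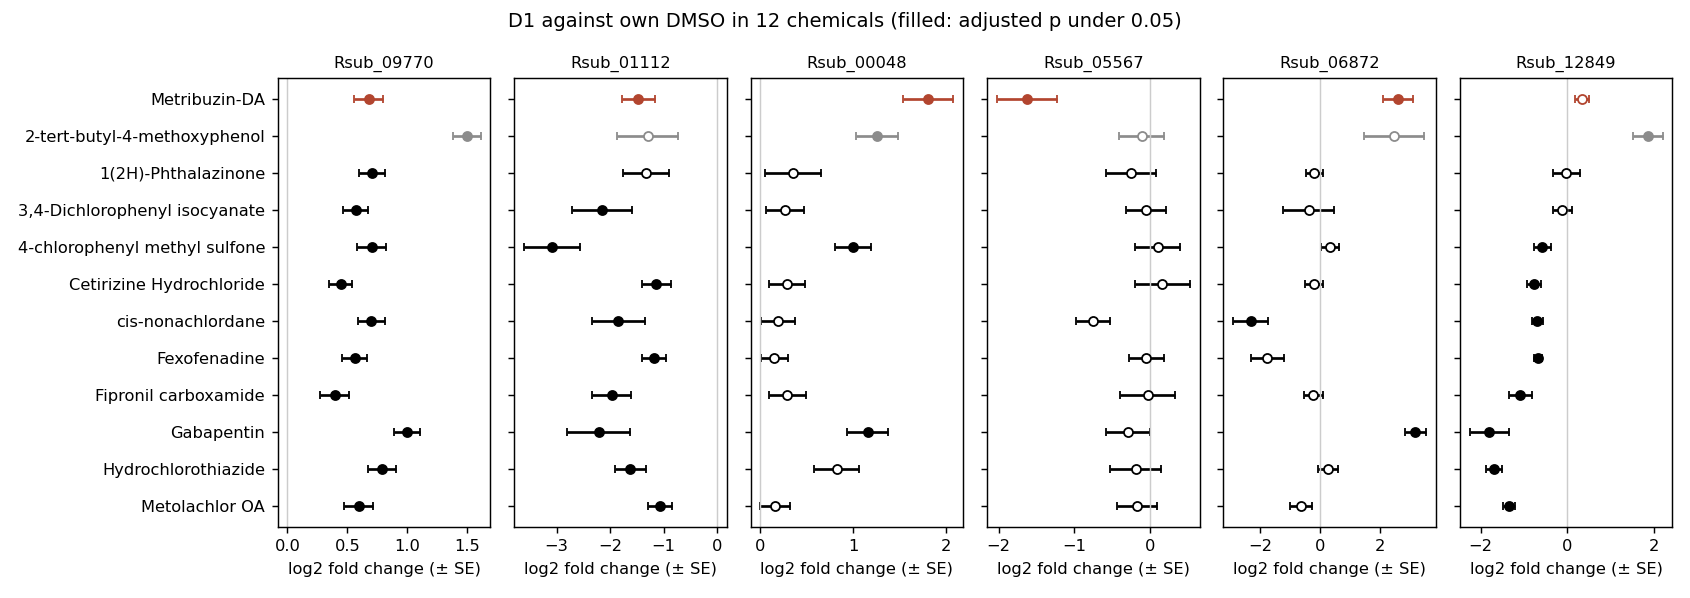
Log2 fold change at D1 against own DMSO, with its SE, of 6 genes in metribuzin-DA (red), in 2-tert-butyl-4-methoxyphenol with the same DMSO libraries (grey) and in 10 chemicals with other DMSO libraries (black); filled points have an adjusted p under 0.05. Rsub_09770 is higher in all 12 and Rsub_01112 is below 0 in all 12. Rsub_12849 is above 0 in metribuzin-DA at 0.33, without a call, and in 2-tert-butyl-4-methoxyphenol at 1.86, and below 0 in the 10 chemicals.

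Whether the D1 response differed from that of the other chemicals was tested directly, in one fit of all D1 and DMSO libraries, as metribuzin-DA at D1 minus DMSO less the mean of the same difference in the 10 chemicals. Of 9649 genes tested, 1 (0.0104%) passed an adjusted p of 0.05, and 673 were under 0.05 before adjustment. None of the 82 genes passed by edgeR, the only tool run here, and 30 of them had a p under 0.05 before adjustment, a count that is a description because the same D1 contrast had chosen them. Without D1 replicate C, 5 genes passed, among them Rsub_00048 with an adjusted p of 0.0188, against 0.116 with all libraries. For Rsub_05567 the difference was -1.47 ± 0.413 on the log2 scale with an adjusted p of 0.357. A difference that misses the threshold does not show that the responses are alike, and the standard errors of the named genes in this test, between 0.156 and 0.861, leave room for differences of that order.

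The single gene that passed was Rsub_12849, which was not called at D1 itself. It was at 132, 154 and 112 CPM in DMSO and at 189, 163 and 148 CPM at D1, where 1 D1 library lay below the highest DMSO library (log2 fold change 0.33 ± 0.157, edgeR adjusted p = 0.362). In the 10 chemicals it was below 0 at D1 throughout, from -1.80 to -0.02, and called lower in 8. In the joint fit its metribuzin-DA change was 0.34 and the mean of the 10 was -0.87, a difference of 1.21 ± 0.184 (edgeR adjusted p = 0.000112). That difference passed in every setting that left out 1 of the 6 metribuzin-DA or DMSO libraries, with adjusted p between 0.000189 and 0.0100. Its DMSO mean differed widely between control sets, from 37.4 to 658 CPM with 131 ± 20.3 CPM here, and the part of this in the difference was not tested. In 2-tert-butyl-4-methoxyphenol, with the same DMSO libraries, it was at 475 ± 28.2 CPM at D1. There it was called higher, with a log2 fold change of 1.86 ± 0.346 (edgeR adjusted p = 0.000195).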

How the data were processed

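The authors deposited raw counts per gene, 1 table per chemical. The submitters' processing notes list featureCounts 2.0.6, STAR 2.7.10a, fastp 0.23.2 and SAMtools 1.15.1. The kit read 3′ ends and carried unique molecular identifiers (UMIs), per the labels' protocols. Not given in the sources used here are the annotation, genome build, strandedness and any collapsing by UMI. Uncollapsed counts would include PCR copies, and near-identical or overlapping genes may share or lose reads.

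Metribuzin-DA libraries were analysed in R 4.3.3 with edgeR 4.0.16 (filterByExpr, TMM scaling, one coefficient per group, glmQLFit and glmQLFTest). Benjamini-Hochberg adjustment ran over all 9210 genes tested, and genes under 0.05 are called. The standard error was taken as |log2 fold change| / √F. CPM use TMM-scaled totals, and log2 CPM a prior count of 2. No library was treated as a duplicate, since chi-square per degree of freedom was 1.80 to 4.58 for the 24 pairs within groups. Scripts were tested on simulated data. The rule named, per comparison, the 2 largest rises and 2 largest falls among called genes with a mean of at least 10 counts and groups that did not overlap. For the mean of the levels, 18 of 21 treated libraries had to lie beyond all DMSO libraries, and tests over several levels had no such condition. Rsub_03806, Rsub_04768, Rsub_09770, Rsub_10402 and Rsub_12849 were added after their values were seen. The members, lists and tests were chosen with earlier results of these data known. Lists by function could not be used, since no gene names were given. Alternatives were DESeq2 1.42.0, RLE scaling, other filters, the replicate letter as a block, a joint fit with 2-tert-butyl-4-methoxyphenol, a fit of only the 6 libraries compared, and leaving out each library. The test against the mean of 10 chemicals and the look-up of other DMSO sets were added after seeing the data.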

Additional observations from a re-analysis of the deposited data

Results flagged for a closer look

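The D1 response of Rsub_12849 differed between metribuzin-DA and the mean of the 10 chemicals with other DMSO libraries by 1.21 on the log2 scale (edgeR adjusted p = 0.000112). It was singled out because a test of the difference itself passed the threshold. The response was 0.34 in metribuzin-DA and -0.87 in the mean of the 10 chemicals. The metribuzin-DA change at D1 was itself not called (edgeR adjusted p = 0.362). In 2-tert-butyl-4-methoxyphenol, with the same DMSO libraries, the gene was called higher at D1 by 1.86 (edgeR adjusted p = 0.000195). Its DMSO means ran from 37.4 to 658 CPM over the control sets, and the part of this in the difference was not tested. All 21 treated metribuzin-DA libraries held between 127 and 198 CPM of this gene, against 112 to 154 CPM in DMSO, and it differed neither among the 7 levels (adjusted p = 0.964) nor over all groups (0.780). The test was added after seeing the data.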

How the results depend on the processing

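Scaling by RLE and a filter at a mean of 10 counts left every count of called genes within 1.5 times of the values above. DESeq2 called 140 genes at D1, 62 at D2, 17 at D4, 2 at D7, 167 over all groups, 124 among the levels and 27 for the mean of the levels. Without a filter on low counts, 176, 68, 27, 19, 8, 6 and 5 genes were called at D1 to D7, 275 over all groups, 207 among the levels, 46 for the mean of the levels (23 higher and 23 lower, against 11 and 1) and 229 between D1 and D7. In one fit with 2-tert-butyl-4-methoxyphenol, 20, 6, 1 and 2 genes were called at D1 to D4, 36 over all groups, 25 among the levels, 1 for the mean of the levels and 58 between D1 and D7. With only the 6 libraries compared, 58 genes were called at D1, 83 at D2, 11 at D4, 1 at D5, 5 at D6, 1 at D7 and 21 between D1 and D7. The causes were not tested.

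Replicates share a letter, but nothing says that a letter marks a shared culture or day, so the main fit did not take the letters as pairs. Deviations of single libraries correlated with those of the same-lettered DMSO library between 0.005 and 0.243 at D2 to D7. At D1 the correlations were 0.017, -0.039 and -0.141 for A, B and C. On the second principal component (8.44% of the variance), letter A scored from -12.42 to -7.08 in DMSO and D2 to D7. Letter C scored from 5.02 to 12.83 in these groups, and letter B from -9.59 to 3.17. D1 A, B and C scored 1.43, 12.66 and -6.76. On average over the other groups, 22 of 24 libraries correlated best with their own letter out of 3 letters. What libraries of a letter share was not tested. With the letter as a replicate block, 206, 84, 14, 3, 3 and 4 genes were called at D1, D2, D4, D5, D6 and D7, 222 over all groups, 189 among the levels, 35 for the mean of the levels (20 higher and 15 lower) and 258 between D1 and D7.

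Leaving out 1 library at a time gave 10 to 128 genes at D1, 5 to 22 at D2, 3 to 9 at D3, 0 to 2 at D4, 0 at D5 to D7, 41 to 116 over all groups, 24 to 89 among the levels, 0 to 23 for the mean of the levels, 18 to 178 between D1 and D7 and 1 to 5 in the test against 10 chemicals. For the 27 combinations of a named gene and a comparison, 543 settings were computed: 470 kept the call, 73 lost it and 0 reversed the direction. DESeq2 gave no adjusted p for 6 more, which were left out. At library totals from 780565 counts, genes near 10 CPM rest on few reads, and with 3 libraries per group a change that was not called cannot be taken as absent.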

Other observations

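Groups with a wide spread of Rsub_06872 also appeared outside metribuzin-DA. The gene, at 400 CPM in D1 replicate B alone, was at 335 ± 317 CPM (SD, n = 3) at D1 of gabapentin, at 140 ± 221 CPM at D1 of 2-tert-butyl-4-methoxyphenol and at 85.5 ± 121 CPM in the DMSO libraries of another control set. In each of these groups the SD was close to the mean or above it. The DMSO means of this gene in the other 5 control sets ran from 26.2 to 85.5 CPM.

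Rsub_04768 and Rsub_09770, which rose at D1, differed more between DMSO sets than between D1 and DMSO. The DMSO mean of Rsub_04768 ran from 109 to 1160 CPM over the other 5 sets, against 291 ± 39.0 CPM in the metribuzin-DA set, and that of Rsub_09770 from 458 to 1770 CPM, against 722 ± 145 CPM. Rsub_09770 was called higher at D1 in each of the 10 chemicals, at log2 fold changes from 0.39 to 1.00.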
